A study of Rattus norvegicus with 6 samples.

Results

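Of 32445 circular RNAs (circRNAs) listed in rat thalamus, 243 (0.749%) had 0 reads in exactly 1 of 6 libraries while being well read in the other 5. They were chosen by their counts alone: each library was scaled to its own total (reads per 1000000 reads, RPM), and a circle was taken when its count was 0 in exactly 1 library and its median over the other 5 was at least 30 RPM. The zeros and the levels above 30 RPM are therefore what chose the circles and are given as a description, with no test. Of the 3418 circles with 0 reads in exactly 1 library, 7.11% reached that level. The name "missing" fits the listed values only up to a limit, because the lowest count above 0 in the table was 2, so a listed 0 may be 1 read.

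The libraries came from 6 rats, 3 given complete Freund's adjuvant (CFA, a mycobacterial emulsion that provokes lasting inflammation) and 3 given saline. Each animal received 50 µL in both temporomandibular joints, the hinge joints of the jaw, with 2 injections a week, and the thalamus, which relays facial pain signals to the cortex, was taken after 14 days. The sources used here do not give strain, age or sex. Per the labels' protocols the RNA went through poly-T beads before random-hexamer copying and PCR.

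A circRNA forms when the end of an exon is spliced back to the start of the same exon or of one further upstream, leaving a ring with no free ends and no poly(A) tail. Only reads that cross the back-splice junction tell a ring from the linear RNA of the same gene. Brain is rich in such rings, many genes give several that overlap, and rings that keep an intron or lie within a single exon also exist. The files used here pair no circle with a gene, so circles are called by chromosome, start and end. The sources used here do not give the genome build, and the labelled tissue could not be checked against marker genes for the same reason.

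The junctions of the circles that the results turn on are printed first, because they are what a read must cross to be counted. Each is 58 nt: the last 29 nt of the circle in lower case, followed by its first 29 nt in capitals, 5′ to 3′ as the deposited sequences run. The first 10 belong to the circles with the highest medians, in that order.

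chr3:94396940-94398038 (minus): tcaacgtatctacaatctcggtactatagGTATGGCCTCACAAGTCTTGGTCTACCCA
chr16:26755422-26780008 (plus): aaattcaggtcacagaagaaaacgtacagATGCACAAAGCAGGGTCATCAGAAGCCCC
chr9:7022983-7029397 (plus): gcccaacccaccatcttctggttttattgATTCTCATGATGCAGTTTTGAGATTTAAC
chr6:15082851-15085804 (minus): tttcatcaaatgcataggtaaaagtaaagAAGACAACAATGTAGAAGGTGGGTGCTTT
chr9:20596863-20599410 (minus): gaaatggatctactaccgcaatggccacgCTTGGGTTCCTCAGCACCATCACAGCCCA
chr12:32103199-32104084 (plus): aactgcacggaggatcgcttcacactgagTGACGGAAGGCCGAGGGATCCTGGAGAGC
chr14:39168189-39186197 (plus): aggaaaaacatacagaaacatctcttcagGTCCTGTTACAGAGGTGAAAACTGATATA
chr7:30708031-30735182 (plus): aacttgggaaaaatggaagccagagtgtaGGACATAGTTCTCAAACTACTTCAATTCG
chr1:204960841-204988430 (plus): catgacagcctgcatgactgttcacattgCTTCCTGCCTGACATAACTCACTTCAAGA
chr15:67643250-67644069 (plus): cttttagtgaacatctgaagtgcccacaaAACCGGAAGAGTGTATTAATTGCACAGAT

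The next lines show circles whose junction is shared, or nearly so, with a neighbour. The first 2 pairs have the same junction letter for letter, and the last pair has the same start and ends that lie 6 nt apart.

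chr10:48452001-48470732 (plus, member): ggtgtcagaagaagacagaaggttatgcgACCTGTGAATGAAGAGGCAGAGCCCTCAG
chr10:48452001-48484868 (plus, neighbour): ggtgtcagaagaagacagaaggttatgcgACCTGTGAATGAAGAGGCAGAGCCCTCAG
chr13:113832448-113836291 (minus, member): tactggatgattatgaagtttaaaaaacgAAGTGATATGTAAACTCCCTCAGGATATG
chr13:113832448-113840267 (minus, neighbour): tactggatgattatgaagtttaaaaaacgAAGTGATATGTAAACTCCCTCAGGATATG
chr15:23792824-23793336 (plus, member): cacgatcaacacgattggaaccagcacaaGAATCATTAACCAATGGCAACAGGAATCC
chr15:23792824-23793342 (plus, neighbour): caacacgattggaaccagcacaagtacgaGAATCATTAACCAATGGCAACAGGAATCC

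The last 2 lines are circles of 1 locus on chromosome 10. The first was the only one of the 243 called between CFA and saline with all 6 libraries, and the second the only one called when each was fitted without its library at 0.

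chr10:11867537-11874610 (minus): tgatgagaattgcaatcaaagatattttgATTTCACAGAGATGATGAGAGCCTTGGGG
chr10:11856924-11863664 (minus): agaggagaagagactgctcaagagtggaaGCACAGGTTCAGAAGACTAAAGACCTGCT

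The most abundant of the 243 was the circle on chromosome 3, 94396940 to 94398038, minus strand, whose 1099 nt equal its genomic span, so it holds no spliced-out intron. It had 0, 1695 and 2594 reads in CFA 1, 2 and 3, and 1823, 5479 and 2512 reads in saline 1, 2 and 3. On the RPM scale the 5 libraries that held it lay close together, at 2601, 2871, 3178, 4658 and 2684 RPM. The median of 2871 RPM corresponds to 1885 reads at the depth of CFA 1, where none was listed. A true count of 0 allows up to 3 reads, or 4.57 RPM in CFA 1, which is 628-fold below the median of the others. A listed 0 that was 1 read would allow more, so 628-fold is not a lower bound. The limit of 3 reads covers counting error only, and PCR reads without molecular identifiers are not independent molecules.

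Next was the circle on chromosome 16, 26755422 to 26780008 (749 nt). Its RPM were 1235, 2431 and 1293 in CFA 1, 2 and 3, and 0, 748 and 1846 in saline 1, 2 and 3. Saline 1 was the exception here, and the range of the other saline libraries covered 2 of the 3 CFA libraries. A 375-nt circle on chromosome 9, 7022983 to 7029397, was at 0 in CFA 3 alone, with 536 and 560 RPM in CFA 1 and 2, and 310, 391 and 901 RPM in saline 1, 2 and 3.

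A 298-nt circle on chromosome 6, 15082851 to 15085804, departed most from this pattern among the 10 most abundant. It had 646, 0 and 321 RPM in CFA 1, 2 and 3, and 591, 504 and 28.8 RPM in saline 1, 2 and 3, so saline 3 was low as well. Another on chromosome 9, 20596863 to 20599410 (1107 nt), had 0, 281 and 734 RPM in CFA and 472, 649 and 357 RPM in saline, with only CFA 1 outside the range of the rest. On chromosome 12, 32103199 to 32104084 is an unspliced ring of 886 nt with no overlapping circle on its strand. It had 465, 364 and 0 RPM in CFA and 499, 700 and 284 RPM in saline, and its 0 fell in CFA 3.

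The other 4 were read as follows. On chromosome 14 the circle from 39168189 to 39186197 (929 nt) had 589, 388 and 226 RPM in CFA and 0, 209 and 862 RPM in saline. On chromosome 7 the circle from 30708031 to 30735182 (558 nt) had 416, 278 and 0 RPM in CFA and 321, 365 and 435 RPM in saline. Both were well above the limit of detection wherever they were listed.

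On chromosome 1 the circle from 204960841 to 204988430 (371 nt) had 0, 241 and 458 RPM in CFA and 349, 476 and 169 RPM in saline. On chromosome 15, 67643250 to 67644069, an unspliced ring of 820 nt had 419, 255 and 265 RPM in CFA and 0, 378 and 283 RPM in saline. Among the 10, CFA libraries were the ones without reads for 7 circles and saline libraries for 3. At the median of the other libraries, these 10 zeros stand where 162 to 1885 reads would have been listed.

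**Figure D1:**
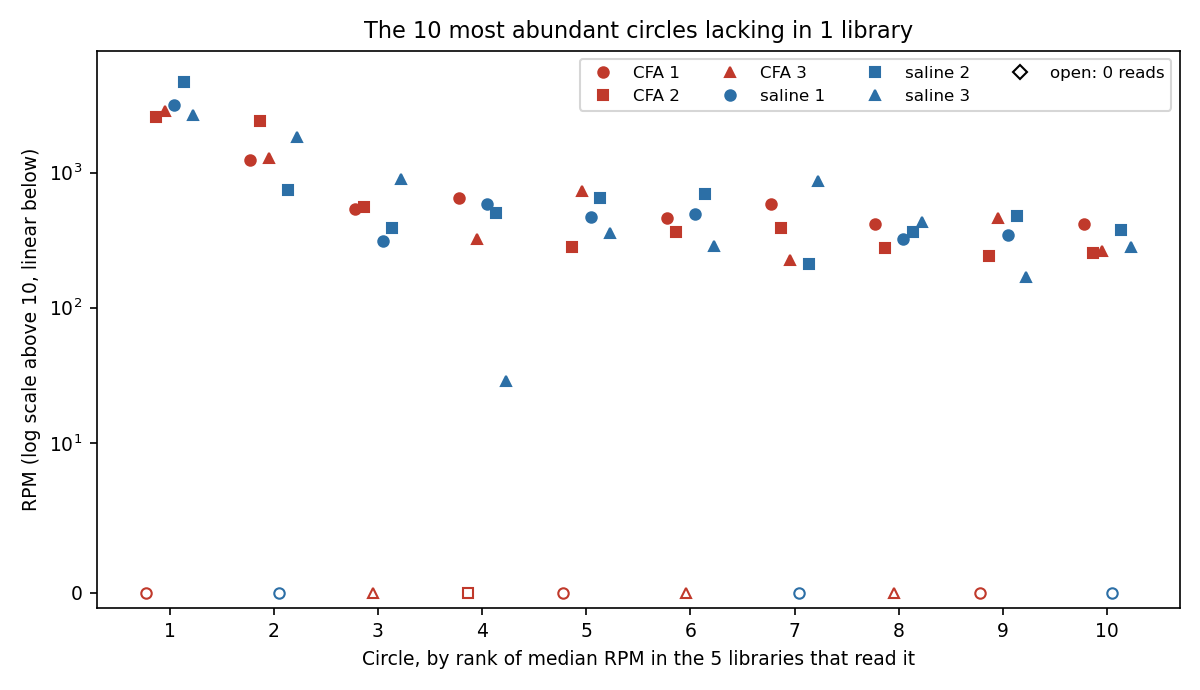
RPM in each of the 6 libraries (vertical axis, log scale above 10 RPM and linear below) for the 10 circles with the highest medians, by rank (horizontal axis, in the order of the printed junctions). Colour gives the treatment and shape the replicate. Each circle has 1 open symbol at 0 and filled symbols close together above it, except the circle on chromosome 6 at 15082851 (rank 4), where saline 3 (28.8 RPM) is low too.

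Most of the 243 circles were less abundant than these. The median level over the other 5 libraries ran from 30.5 to 2871 RPM, with a median of 48.8 RPM and quartiles of 35.6 and 71.5 RPM. There were 125 circles under 50 RPM, 86 between 50 and 100 RPM and 32 at 100 RPM or more. Scaled to the library without reads, the median would have been 17.6 to 1885 reads, with a median of 39.7 reads. Together the circles held 1.61% to 2.07% of the reads of each library.

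In 124 of 243 all 5 libraries lay within 2-fold of their median. The lowest of the 5 was 0.578 times the median in the median circle, and the highest was 1.48 times. In 22 circles the lowest of the 5 was itself under 0.2 of the median, so for these at least 1 other library was low as well.

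The threshold of 30 RPM cuts through a continuous range. Just inside it, at 30.5 RPM, were 3 circles. On chromosome 13, 72960660 to 72984036, there were 20, 0 and 32 reads in CFA and 13, 47 and 5 in saline. On chromosome 2, 265163859 to 265257294, there were 20, 29 and 16 reads in CFA and 11, 0 and 36 in saline. On chromosome 4, 144739423 to 144754477, there were 20, 0 and 29 reads in CFA and 13, 40 and 8 in saline.

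Just outside, at 29.9 RPM, were 3 more, with similar counts. On chromosome 3, 55938094 to 55940690, there were 20, 0 and 27 reads in CFA and 19, 23 and 21 in saline. On chromosome 6, 3236170 to 3251275, there were 15, 9 and 27 reads in CFA and 24, 0 and 31 in saline. On chromosome 7, 64754432 to 64765092, there were 26, 0 and 27 reads in CFA and 17, 38 and 26 in saline.

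Circles that were read in all 6 libraries, with a median of at least 30 RPM over all 6, served for comparison. That median takes in the lowest library, unlike the median over 5 that chose the 243. Near 30 RPM a circle with 1 very low library could therefore fall short of it, so the 2 cuts are not quite alike. There were 4320 with a median of at least 30 RPM, and in these the ratio of the lowest library to the median of the other 5 had a median of 0.590 and a 1st percentile of 0.133. Only 21 of them (0.486%) had their lowest library below 0.1 of that median, beside the 243 at 0. At 100 RPM or more the contrast was wider: 1 of 1604 comparison circles (0.0623%) fell below 0.1, while 32 circles were at 0. At 300 RPM or more, 0 of 516 comparison circles fell below 0.1 and 9 circles were at 0. Near 30 RPM a level below 0.1 of the median is under 2 reads in the 3 shallowest libraries, less than the lowest listed count, so the few low values there are partly set by that limit. At 100 RPM or more such a level could be listed in every library, and few values lay between 0.1 of the usual level and a listed 0. This is a description of the values that chose the circles and was not tested.

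**Figure D2:**
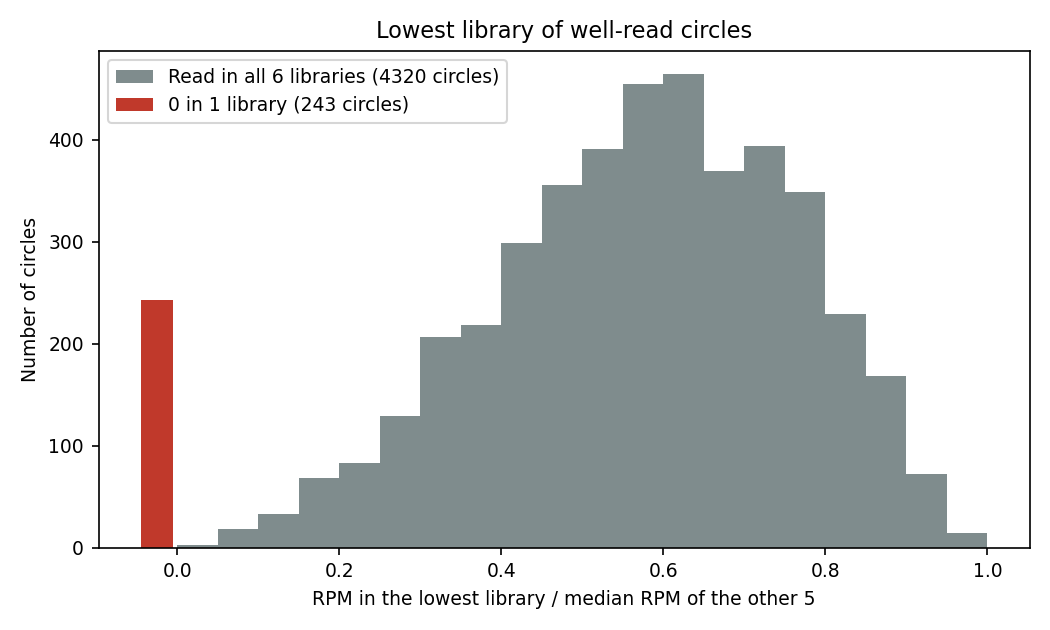
Number of circles (vertical axis) by the RPM of the lowest library divided by the median of the other 5 (horizontal axis). Grey bars are the 4320 comparison circles read in all 6 libraries, of which 21 lie below 0.1, and the red bar, drawn just left of the grey ones, is the 243 circles at exactly 0.

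The zeros were spread over all 6 libraries. Saline 1, the shallowest at 573696 reads, lacked 57 of the circles. CFA 2 (651615 reads) lacked 44 and CFA 1 (656598 reads) lacked 43. CFA 3 (903443 reads) lacked 28, saline 3 (936062 reads) lacked 40 and saline 2, the deepest at 1176178 reads, lacked 31. The 3 shallowest libraries thus lacked more circles each than the 3 deepest, which were still missing 28 to 40. A true count of 0 allows up to 2.55 RPM in saline 2 and up to 5.23 RPM in saline 1, below the 30 RPM of the threshold in each library. A listed 0 that was 1 read would allow more. By treatment, 115 circles were missing from a CFA library and 128 from a saline library. CFA 3 has a column name with a different first letter from CFA 1 and 2, whose meaning the sources used here do not give.

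**Figure D3:**
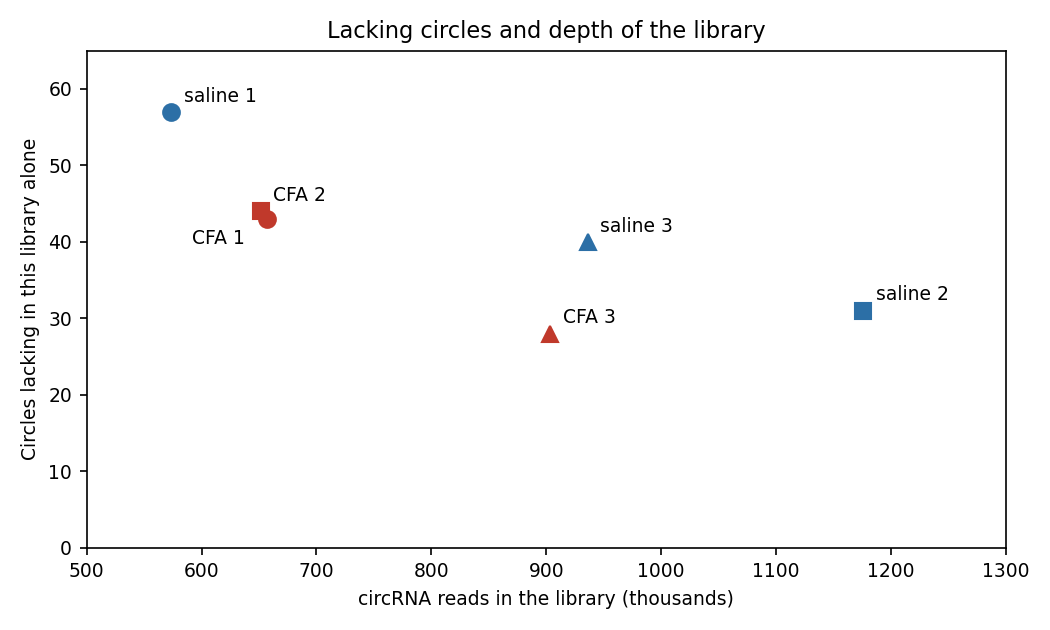
Number of circles missing from each library alone (vertical axis) against the circRNA reads of that library (horizontal axis, which does not start at 0). Colour gives the treatment. Saline 1, the shallowest, lacks 57 circles and the 3 deepest libraries lack 28 to 40 each.

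In length and base composition the circles resembled the comparison circles. Their median length was 525 nt (quartiles 414 and 660 nt, range 135 to 2383 nt), against 512 nt. The genomic span had a median of 12341 nt, against 12930 nt. GC content had a median of 47.9%, against 47.5%, and adenine 27.8%, against 28.6%. Shares of long circles were 3.29% (8 of at least 1000 nt) and 1.99%.

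Unspliced rings, whose length equals their span, stood out in number. They made up 24 of 243 circles (9.88%) and 148 of 4320 comparison circles (3.43%). The higher share held within each range of abundance. It was 10 of 125 against 26 of 1418 (1.83%) at 30 to 50 RPM, and 6 of 86 (6.98%) against 35 of 1298 (2.70%) at 50 to 100 RPM. At 100 RPM or more it was 8 of 32 against 87 of 1604 (5.42%). The 24 unspliced rings were 424 to 1205 nt long, 14 were missing from a CFA library and 10 from a saline library, and 3 were among the 10 most abundant circles. As the choice of circles fixed these sets, the shares carry no test.

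The surroundings of the circles differed less. There were 28 circles (11.5%) with no overlapping circle on their strand, against 6.34% of comparison circles. Of the 28, 10 were unspliced. Among spliced circles the shares were 8.22% and 5.68%. A start or end shared with another circle was found for 211 (86.8%), against 91.0%. The 243 circles fell in 231 loci, where a locus is a run of circles overlapping on 1 strand.

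Reads over a junction that is repeated elsewhere cannot be placed by the junction bases alone, so all junctions were compared, without gaps and in both orientations. A junction with at most 3 mismatches over at least 40 aligned bases was found for 2 circles (0.823%) and for 24 comparison circles (0.556%). Both matches had 0 mismatches and are the first 2 printed pairs. In each pair the neighbour starts at the same base and ends further on, and reads over such a junction cannot be told apart.

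On chromosome 10, the circle from 48452001 to 48470732 (432 nt) and its 348-nt neighbour were both listed with reads in the other 5 libraries. In saline 3 the circle had 0 reads and the neighbour 10. The pair summed to 10.7 RPM in saline 3, against at least 32.0 RPM in each other library. On chromosome 13, the circle from 113832448 to 113836291 (325 nt) and its 286-nt neighbour were read in the same way. They had 0 and 10 reads in saline 3, and 10.7 RPM for the pair against at least 41.4 RPM elsewhere. For these 2 circles the junction was thus read in saline 3, at a lower level than in any other library.

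A second kind of neighbour begins and ends within 20 nt of the circle, with 1 end shifted, as in the third printed pair. There were 15 circles (6.17%) with such a neighbour, against 5.42% of comparison circles. The neighbour had reads in the library without the circle in 6 cases and none in 9. The following cases were chosen after their values were seen. The unspliced ring on chromosome 15, 23792824 to 23793336 (513 nt), had 27, 0 and 30 reads in CFA and 27, 72 and 12 in saline. Its neighbour ending 6 nt further on had 496, 375 and 822 reads in CFA and 591, 1229 and 422 in saline, so it was far more abundant and was read in CFA 2. The unspliced ring on chromosome 5, 22392562 to 22393179, had 0 reads in CFA 2, where the neighbour ending 4 nt further on had 32. The spliced circle on chromosome 1, 102634876 to 102660697, had 0 reads in CFA 1, where the neighbour starting 8 nt later had 25. In the remaining cases with reads there, the neighbour had its highest count in the library without the circle. For chromosome 5, 92962208 to 92983896, it had 13 reads in saline 1 and 2 to 9 elsewhere. For chromosome 2, 257626382 to 257634977, it had 14 in saline 2 and 0 to 8 elsewhere. For chromosome 16, 4222176 to 4283627, it had 2 in saline 3 and 0 elsewhere. Among the 10 most abundant circles, those on chromosomes 6, 7 and 14 had such a neighbour, and in each of these the neighbour also had 0 reads in the library without the circle. These neighbours were at 0 in most libraries, however, with 35 and 46 reads in 2 saline libraries for chromosome 6, 10 and 4 reads in 2 libraries for chromosome 7 and 4 reads in 1 library for chromosome 14, so little can be read from the shared 0. Whether reads were assigned to 1 of 2 near-equal circles in a given library was not tested.

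Repeated sequence over the rest of the ring was rare. At least one stretch of 31 nt recurred in a circle of another locus for 6 circles (2.47%) and for 1.34% of comparison circles. In none of the 243 did such stretches reach 50% of the ring. The most abundant circle, on chromosome 3, shared 11.6% of its 31-nt stretches with 1 other listed circle, a 154-nt ring on the opposite strand that lies inside it, from 94397040 to 94397193. This ring had 4 reads in CFA 1, the library without the abundant circle, and 0 reads in the other 5. It was the only case among the 243 of a listed circle on the opposite strand.

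Overlapping circles on the same strand tell whether the locus itself was read in the library in question. Of the 243 circles, 215 overlapped at least 1 circle outside the set, with a median of 5 and at most 27. In the library without the circle, the overlapping circles had reads for 182 of these 215. Of the other 33, the overlapping circles were low everywhere in 23, with a median under 10 RPM in the other 5 libraries. Their summed level reached 30 RPM in 2.

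For 149 circles the overlapping circles summed to 30 RPM or more in the median of the remaining libraries, enough to compare levels. The ratio of their RPM in the library without the circle to that median was 0.874 in the median (quartiles 0.629 and 1.08). For comparison circles, taking each library in turn, the same ratio was 0.992 (quartiles 0.802 and 1.21). It was under 0.5 for 21 of 149 (14.1%), against 4.36% of the comparison ratios, and under 0.2 for 5 (3.36%), against 0.471%. The ratio was at or below 1 in 96 and above 1 in 53. It had a median of 0.854 for the 70 circles missing from CFA and 0.932 for the 79 missing from saline. Most of these loci were therefore read in the library without the circle, with a tail of loci that were low there.

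**Figure D4:**
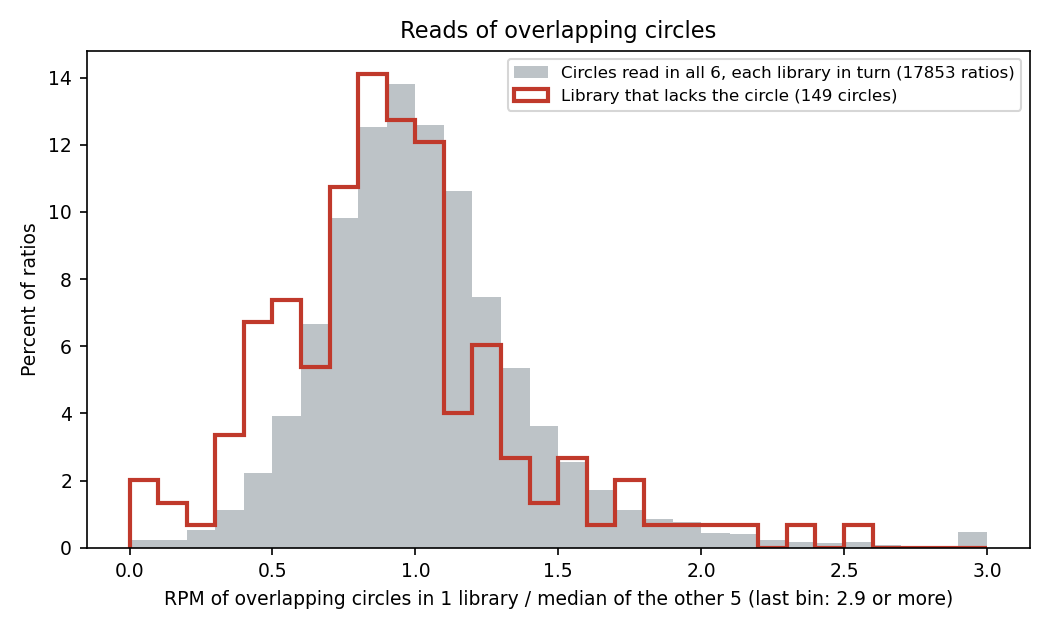
Percent of ratios (vertical axis) by the summed RPM of overlapping circles in 1 library over the median of the other 5 (horizontal axis, the last bin holding all higher values). The red outline is the library without the circle for 149 circles, and grey bars are comparison circles with each library in turn (17853 ratios). The medians are 0.874 and 0.992, and 14.1% against 4.36% lie under 0.5.

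Loci of high output showed the contrast most clearly. The circle on chromosome 7, 30708031 to 30735182, had 0 reads in CFA 3 amid 15 overlapping circles that held 12935 reads there. Those circles stood at 14318 RPM in CFA 3 and at a median of 14465 RPM in the other 5 libraries, a ratio of 0.99. Around the circle on chromosome 9, 7022983 to 7029397, the ratio in CFA 3 was 1.04, from 12 overlapping circles with a median sum of 211 RPM in the other 5. Around the circle on chromosome 1, 204960841 to 204988430, it was 0.75 in CFA 1.

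At other abundant circles the neighbours were low in the same library. The ratio was 0.47 in saline 1 for the circles on chromosome 16 at 26755422 and on chromosome 15 at 67643250. On chromosome 16 the overlapping circles were lower still in saline 2, where the circle itself was read (43.4 RPM, against 57.5 RPM in saline 1). The ratio was 0.30 for the circle on chromosome 6 at 15082851 in CFA 2. It was 0.05 for the circle on chromosome 14 at 39168189 in saline 1, where 9 overlapping circles had 3 reads in all. For the most abundant circle, on chromosome 3, the 2 overlapping circles on its strand were at most at 18.7 RPM in any library and could not serve as a measure.

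The 5 lowest and 5 highest ratios mark the range. The lowest were 0 for the 2 circles on chromosome 20 at 2434934 and 2428157, then 0.05 for the circle on chromosome 14 given above. They were followed by 0.16 for chromosome 11, 47157561 to 47169764, in saline 2 and 0.18 for chromosome 3, 21664454 to 21669948, in saline 1. The highest were 2.54 for chromosome 19, 39543248 to 39565408, in saline 2 and 2.32 for chromosome 6, 1252423 to 1259749, in saline 3. Then came 2.18 for chromosome 17 (77679881 to 77720691), 2.05 for chromosome 3 (58840277 to 58874195) and 1.91 for chromosome 7 (57413013 to 57434518). At the last 5, overlapping circles were higher in the library without the circle than in the usual one of the others.

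In 12 loci there were 2 of the 243 circles, and in 3 of these both were missing from the same library. At the locus on chromosome 1, 204958606 to 204997859, 29 circles were listed, and the 2 circles missing from CFA 1 share their start at 204960841. Their junctions share the part in capitals and differ in the rest. The 3 other circles with this start had 516 reads, or 786 RPM, in CFA 1, against a median of 831 RPM in the other 5. The start was therefore in use in CFA 1, within the range of the other libraries (441 to 1119 RPM).

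The other 2 loci had no reads at all in saline 1. On chromosome 20, 2428157 to 2467387, 9 circles summed to 60.9, 287 and 62.0 RPM in CFA and to 0, 270 and 168 RPM in saline. On chromosome 2, 204602015 to 204614796, 3 circles summed to 142, 44.5 and 33.2 RPM in CFA and to 0, 65.5 and 245 RPM in saline. At these loci all listed rings were at 0 together, in 1 of 3 saline libraries.

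A search over all loci, whether or not they held one of the 243 circles, found 95 with 0 reads in exactly 1 library and 30 RPM or more in the median of the rest. Of these, 28 held 1 circle and 67 held at least 2 circles. Loci of at least 2 circles at that level that were read in all 6 libraries numbered 2744. The library without reads was saline 1 for 24 of the 67. The 95 loci held 53 of the 243 circles, 25 of them in 23 loci with at least 2 circles. The other 190 circles lay in loci that kept some reads in the library in question.

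The last comparison is between CFA and saline, which asks whether the inflamed joint went with a change in thalamic circles. Counts were fitted with edgeR's quasi-likelihood test, adjusting p by Benjamini-Hochberg over all 22426 circles with at least 10 reads in sum. All 243 circles were tested, and 1 was called at an adjusted p of 0.05 (0.412%), beside 28 of all circles tested (0.125%). By unadjusted p under 0.05, 17 of 243 passed (11 higher and 6 lower in CFA), beside 2.68% of all circles. The RPM of the 2 groups did not overlap for 15 (6.17%, 11 higher and 4 lower in CFA), beside 6.63% of all circles. In each of these 15 the 0 fell in the lower group, as it must where the groups do not overlap. A circle chosen for a 0 in 1 group is shifted in these counts by the choice itself, so nothing is read from them.

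The called circle was that on chromosome 10, 11867537 to 11874610, minus strand (472 nt, spliced). It had 32, 21 and 93 reads in CFA 1, 2 and 3, and 5, 19 and 0 in saline 1, 2 and 3. This corresponds to 61.3 ± 37.0 RPM in CFA and 8.29 ± 8.09 RPM in saline (SD, n = 3 each), and the groups did not overlap. Here and below, the SE of an edgeR fit is the size of the log2 fold change divided by the square root of the test's F statistic. It is not an SE reported by edgeR. The log2 fold change was 2.82 ± 0.61 (SE), with an adjusted p of 0.00646 from edgeR's quasi-likelihood test (Benjamini-Hochberg adjusted). Without saline 3, the library at 0, it was 2.24 with an adjusted p of 0.171 by the same test. The call was also lost without CFA 3 (log2 fold change 2.18), without saline 1 (2.77), with a minimum of 30 reads, and in DESeq2. The 3 overlapping circles stood at 21.3, 13.8 and 62.0 RPM in CFA and at 38.3, 22.1 and 47.0 RPM in saline, so their groups overlapped.

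The same locus of 5 circles holds a second of the 243, on chromosome 10 from 11856924 to 11863664 (349 nt). It had 45, 0 and 149 reads in CFA and 24, 25 and 13 reads in saline, so its 0 lies in the group that was otherwise higher. With all libraries its log2 fold change was 1.66 ± 1.59 (SE), and it was not called. Without CFA 2 it was 2.24 ± 0.49, with an adjusted p of 0.00645 from edgeR's quasi-likelihood test (Benjamini-Hochberg adjusted). It was the only one of the 243 called when each was fitted without its own missing library. Dropping a 0 chosen for being 0 raises that group by construction.

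The next circles by p were not called. The circle on chromosome 6, 1252423 to 1259749, had 22, 70 and 54 reads in CFA and 12, 32 and 0 in saline, with a log2 fold change of 2.0 ± 0.56 (SE). Its adjusted p by edgeR's quasi-likelihood test (Benjamini-Hochberg adjusted) was 0.207. Without saline 3, its library at 0, the log2 fold change was 1.42, with an adjusted p of 0.9999 by the same test. Without saline 2, a fit that keeps the 0, the adjusted p was 0.0357 at a log2 fold change of 2.82. In the other fits with 1 library left out it was not called. The circle on chromosome 1, 157422218 to 157444997, had 31, 0 and 27 reads in CFA and 47, 68 and 75 in saline. Its log2 fold change was -1.50 ± 0.52, and -0.93 without CFA 2, its library at 0. The circle on chromosome 11, 69762379 to 69778524, had 22, 57 and 34 reads in CFA and 15, 28 and 0 in saline. Its log2 fold change was 1.64 ± 0.59, and 1.05 without saline 3, its library at 0.

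Across the 243 the median log2 fold change was 0.05, with 126 above and 117 below 0, beside -0.05 over all circles tested. The sign followed the 0. Of the 115 circles missing from a CFA library 98 lay below 0, with a median of -0.56. Of the 128 missing from a saline library 109 lay above 0, with a median of 0.51. Fitted without the library at 0, the medians were 0.02 and -0.07, and 98 of the 243 fold changes had changed sign. Removing 1 zero from 3 values raises a group mean 1.5-fold, or by 0.58 on the log2 scale, and the shifts were 0.53 to 0.62 in size.

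**Figure D5:**
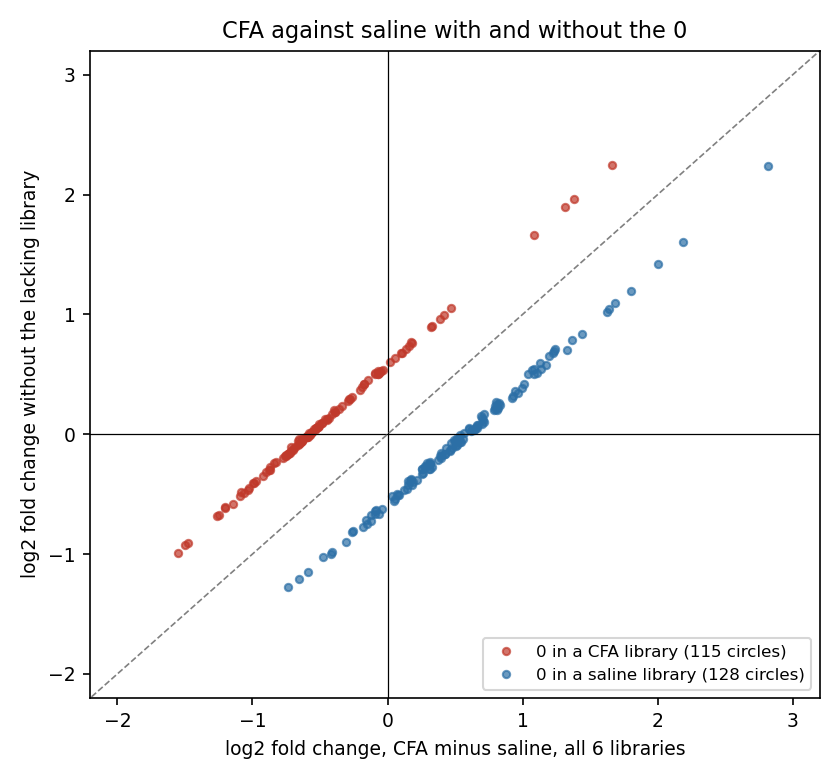
Log2 fold change of CFA over saline for each of the 243 circles, with all 6 libraries (horizontal axis) and without the library at 0 (vertical axis), coloured by the group that holds the 0, with equal values on the dashed line. The 2 sets form parallel bands, shifted by 0.53 to 0.62 to either side of that line.

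The error of the fold change also moved with the single 0. For the 32 circles at 100 RPM or more the median SE was 1.56 with all libraries and 0.41 without the library at 0, and the SE was smaller without it in all 32. Comparison circles at that level had a median SE of 0.35. For the 86 circles at 50 to 100 RPM the median SE was 1.19 with all libraries and 0.51 without the library at 0, and smaller without it in 85. For the 125 circles at 30 to 50 RPM the median SE was 0.62 with all libraries and 0.61 without the library at 0. In that lowest range the 2 medians were thus close in this fit, though single SE with all libraries reached 2.15. The size of the SE depended on the fit. For the called circle on chromosome 10, with all libraries, it was 0.61 here and 0.93 with at least 30 reads. The SE that DESeq2 itself reports, worked out in another way, was 1.02. The most abundant circle, on chromosome 3, went from -0.99 ± 1.99 to -0.41 ± 0.29 without CFA 1, and was called in neither fit. In a fit that is not robust, with all libraries, its SE was 0.75. What set the size of the SE was not tested. Among the 10 most abundant, the fold changes were -0.99 to 0.83 with all libraries and -0.50 to 0.39 without, and the SE without the library at 0 stayed high for the circle on chromosome 6 at 15082851 (1.43), which was also low in saline 3.

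The loci of these circles were compared between the groups on reads the choice did not use. The 243 circles were taken out, the remaining circles of each locus were summed, and all 7544 loci with at least 10 reads were fitted in the same way. Of the 231 loci, 194 were tested and 0 were called, with 1.0 as the smallest adjusted p from edgeR's quasi-likelihood test (Benjamini-Hochberg adjusted), beside 1 of all loci (0.0133%). By unadjusted p under 0.05, 4 of the 194 passed (2.06%), beside 1.80% of all loci. The median log2 fold change was -0.09, against -0.05 over all loci, and 150 of the 194 lay within 0.5 of 0. No difference between CFA and saline in the remaining circles of these loci was detectable with 3 animals a group.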

How the data were processed

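The deposited table holds, per the file headers, a raw read count per circRNA and library, which the authors derived from their reads. It also holds a value named TPM, in which 1 read was worth the same for every circle of a library, so the values the authors deposited are RPM with no length term. For the values printed here, counts were divided by each column's sum. The submitters' processing notes name featureCounts 1.5.0-p3, DESeq2 1.20.0, HISAT2 2.0.5 and StringTie 1.3.3b. The sources used here do not give the circRNA caller, its filters or the build. Lengths, junctions and 31-nt stretches were read from the deposited circle sequences. Members, lists and tests were chosen with earlier results of these data known.

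Groups were taken from the sample titles (3 CFA, 3 saline). The labels describe separate animals, and no 2 libraries agreed within sampling noise. Counts were fitted with edgeR 4.0.16 in R 4.3.3 (TMM factors, robust quasi-likelihood, at least 10 reads summed over 6 libraries, Benjamini-Hochberg adjustment over all circles, threshold 0.05), and with DESeq2 1.42.0 as an alternative. On simulated counts the fit recovered the directions of the changes, but with the minimum of 10 reads more of its calls were false than the threshold allows, so single calls carry that doubt. Circles described one by one are the 10 with the highest medians, those with a near-identical junction, the 5 lowest and 5 highest ratios of overlapping circles, those called and the next 3 by p, those nearest the threshold and the pairs missing from 1 library. Lists of host genes and cell type markers were not used, since the files used here name no genes.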

Additional observations from a re-analysis of the deposited data

How the results depend on the processing

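The number of circles followed the level asked for: 558 at a median of at least 20 RPM, 118 at 50 RPM and 32 at 100 RPM. When 1 library was left out and the rule applied to the other 5, it ranged from 220 to 251. Counting neighbours by both ends within 20 nt, in place of junction sequence, gave 15 circles in place of 2. The median ratio of overlapping circles ranged from 0.873 to 0.903 with 1 library left out, and was 0.932 where overlapping circles summed to 100 RPM or more. Taking in every circle of the locus, an alternative chosen after seeing the data, gave 0.896, and reads in the library without the circle for 188 in place of 182.

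Of all circles, 28 were called in the fit described. With at least 30 reads and with edgeR's filterByExpr 0 were called (237 and 130 at an unadjusted p under 0.05), with DESeq2 4 (379 unadjusted), and with 1 library left out 15 to 40, the lowest without saline 1. Of the 243, 0 were called with at least 30 reads, with filterByExpr, with a fit that is not robust and with DESeq2 (1, 1, 11 and 3 at an unadjusted p under 0.05). For sums of overlapping circles, 1 locus was called, 5 with no filter, and 0 with at least 30 reads, with filterByExpr or with a fit that is not robust (111, 82 and 145 unadjusted), and 0 to 3 with 1 library left out. The cause was not tested.

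With the replicate block 45 circles (4 of the 243) and 20 loci were called. Same-numbered CFA and saline libraries did not deviate together (correlations 0.03, -0.01 and -0.28 over 4320 circles). Pairs with different numbers ranged from -0.22 to 0.23. Whether same-numbered libraries share more than a number cannot be told from these values.

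Among the 10 most abundant circles and the 4 with the lowest p, leaving out 1 library turned the sign of 6, whose log2 fold changes ranged from -1.06 to 0.0094 (chromosome 9, 7022983), -1.17 to 0.39 (chromosome 6, 15082851), -1.89 to 0.0197 (chromosome 9, 20596863), -0.50 to 1.80 (chromosome 14, 39168189), -1.54 to 0.0523 (chromosome 1, 204960841) and -0.17 to 1.05 (chromosome 15, 67643250). With 3 animals a group and a lowest listed count of 2, a 0 cannot be told from 1 read.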
